A study of Rattus norvegicus with 6 samples.

Results

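Heat shock proteins of the cytosol and mitochondria were followed in primary rat oligodendrocytes, the cells that wrap central axons in myelin. Members were taken as the entries of the deposited gene table whose symbol matched 1 of 10 chaperone genes, and all 10 were found among its 20422 genes. They cover the small heat shock proteins (Hspb1, Cryab), the HSP70 group (Hspa8, Hspa4, Hsph1), HSP90 (Hsp90aa1, Hsp90ab1), the J-domain partners of HSP70 (Dnajb1, Dnaja1) and the mitochondrial chaperonin (Hspd1). Poly(A) RNA came from cultures prepared at postnatal day 1. In 3 libraries the cells had received 0.01 mM water-soluble cholesterol for 12 h, and in 3 libraries PBS for 12 h. The labels name no strain, sex or source animal, and a control for a cholesterol carrier was not analysed here. They do not say whether replicates were separate cultures. The p-values therefore set the group difference only against the spread among these libraries, and that spread may be technical.

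Heat shock proteins are molecular chaperones that bind unfolded proteins. HSP70 proteins take up clients delivered by J-domain proteins, exchange factors of the HSP110 type such as Hsph1 and Hspa4 release them, and HSP90 finishes the folding of kinases and receptors. Small heat shock proteins hold unfolding proteins without using ATP. After protein damage, heat shock factor 1 (Hsf1) switches on many of these genes through heat shock elements, which are repeats of the letters GAA and its reverse complement TTC in alternating orientation.

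The upstream sequences of 6 members are shown first, because they hold letters that match heat shock elements. They are the 250 bases before the annotated start in RefSeq (build GRCr8), each written 5′ to 3′ on the gene's own strand, and capitals mark every match to GAANNTTC or TTCNNGAA, which are 2-unit elements. Hspb1 (chr12:26432302-26432551, minus strand) and Dnajb1 (chr19:41431142-41431391, minus strand) rose. Hsph1 (chr12:10427118-10427367, plus strand) and Hspd1 (chr9:64084038-64084287, minus strand) fell. Hspa8 (chr8:50080264-50080513, plus strand) and Dnaja1 (chr5:60638154-60638403, plus strand) did not pass the test.
Hspb1: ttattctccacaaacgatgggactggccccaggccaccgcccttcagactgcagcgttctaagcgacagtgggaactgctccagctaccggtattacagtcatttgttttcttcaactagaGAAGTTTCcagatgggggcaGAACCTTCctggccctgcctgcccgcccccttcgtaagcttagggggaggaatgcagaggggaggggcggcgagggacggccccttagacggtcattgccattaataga
Dnajb1: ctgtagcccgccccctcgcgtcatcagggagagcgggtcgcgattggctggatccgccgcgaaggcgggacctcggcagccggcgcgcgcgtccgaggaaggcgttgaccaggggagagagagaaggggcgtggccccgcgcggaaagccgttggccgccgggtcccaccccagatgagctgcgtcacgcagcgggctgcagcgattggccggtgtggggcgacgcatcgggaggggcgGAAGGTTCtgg
Hsph1: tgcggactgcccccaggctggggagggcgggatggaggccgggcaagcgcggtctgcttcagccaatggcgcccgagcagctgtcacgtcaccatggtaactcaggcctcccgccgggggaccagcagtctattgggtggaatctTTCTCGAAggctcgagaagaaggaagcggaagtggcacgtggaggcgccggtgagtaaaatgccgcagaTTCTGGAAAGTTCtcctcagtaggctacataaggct
Hspd1: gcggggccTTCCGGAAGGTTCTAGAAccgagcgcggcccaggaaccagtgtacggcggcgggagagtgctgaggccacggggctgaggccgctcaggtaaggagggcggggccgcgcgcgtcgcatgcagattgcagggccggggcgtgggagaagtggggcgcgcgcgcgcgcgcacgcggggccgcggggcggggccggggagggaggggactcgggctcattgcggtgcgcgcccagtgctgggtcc
Hspa8: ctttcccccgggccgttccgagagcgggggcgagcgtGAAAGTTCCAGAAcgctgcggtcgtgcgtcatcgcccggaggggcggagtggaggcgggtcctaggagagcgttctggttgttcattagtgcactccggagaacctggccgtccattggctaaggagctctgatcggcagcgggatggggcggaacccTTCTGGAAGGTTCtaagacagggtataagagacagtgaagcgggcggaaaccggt
Dnaja1: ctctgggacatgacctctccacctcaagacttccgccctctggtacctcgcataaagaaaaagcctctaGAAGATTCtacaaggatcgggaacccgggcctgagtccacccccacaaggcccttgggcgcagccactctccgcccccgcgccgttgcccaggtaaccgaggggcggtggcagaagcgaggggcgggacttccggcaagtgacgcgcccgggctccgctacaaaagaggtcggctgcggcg
Promoters of 8 of the 10 members were in the RefSeq table. Cryab and Hsp90aa1 were the members without one. A 2-unit match stood in 6 of the 8, against 13.5% of the 33469 promoters of that length. A 3-unit match, which is GAANNTTC followed by NNGAA or its reverse complement, TTCNNGAA followed by NNTTC, stood in 3 of the 8, namely Hspa8, Hsph1 and Hspd1, against 0.663% of all promoters. A 3-unit match contains 2 overlapping 2-unit matches, and both motif pairs were searched on both strands. Hspa4 and Hsp90ab1 held no match in this window. The matches are letters only and do not show binding.

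After cholesterol, the 10 members split into 3 that rose, 4 that fell and 3 that did not pass, and the largest changes were the rises of both small heat shock proteins. Hspb1 and Cryab rose by about 2-fold (2.13-fold and 1.89-fold), Dnajb1 rose 1.2-fold, while the fold values of the falling genes ran from 0.777 for Hsph1 and 0.795 for Hspa4 to 0.844 for Hspd1 and 0.942 for Hsp90ab1. Every member passed the filter on low counts. By edgeR's quasi-likelihood test over 16182 genes, 40.3% passed an adjusted p of 0.05, with 20.5% higher and 19.7% lower, and the 7 calls among 10 members are read against that background. Most members are abundant, and calls were more frequent among abundant genes. With only the 8537 genes at a mean of at least 5 FPKM, 2396 were higher and 2324 lower, and the members again counted 3 higher and 4 lower. The groups did not overlap for 7 members, against 52.3% of all genes. The members' log2 fold changes had a median of -0.02, against 0.00527 for all genes, and the median absolute change was 0.25 for the members and 0.22 for all genes.

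**Figure D1:**
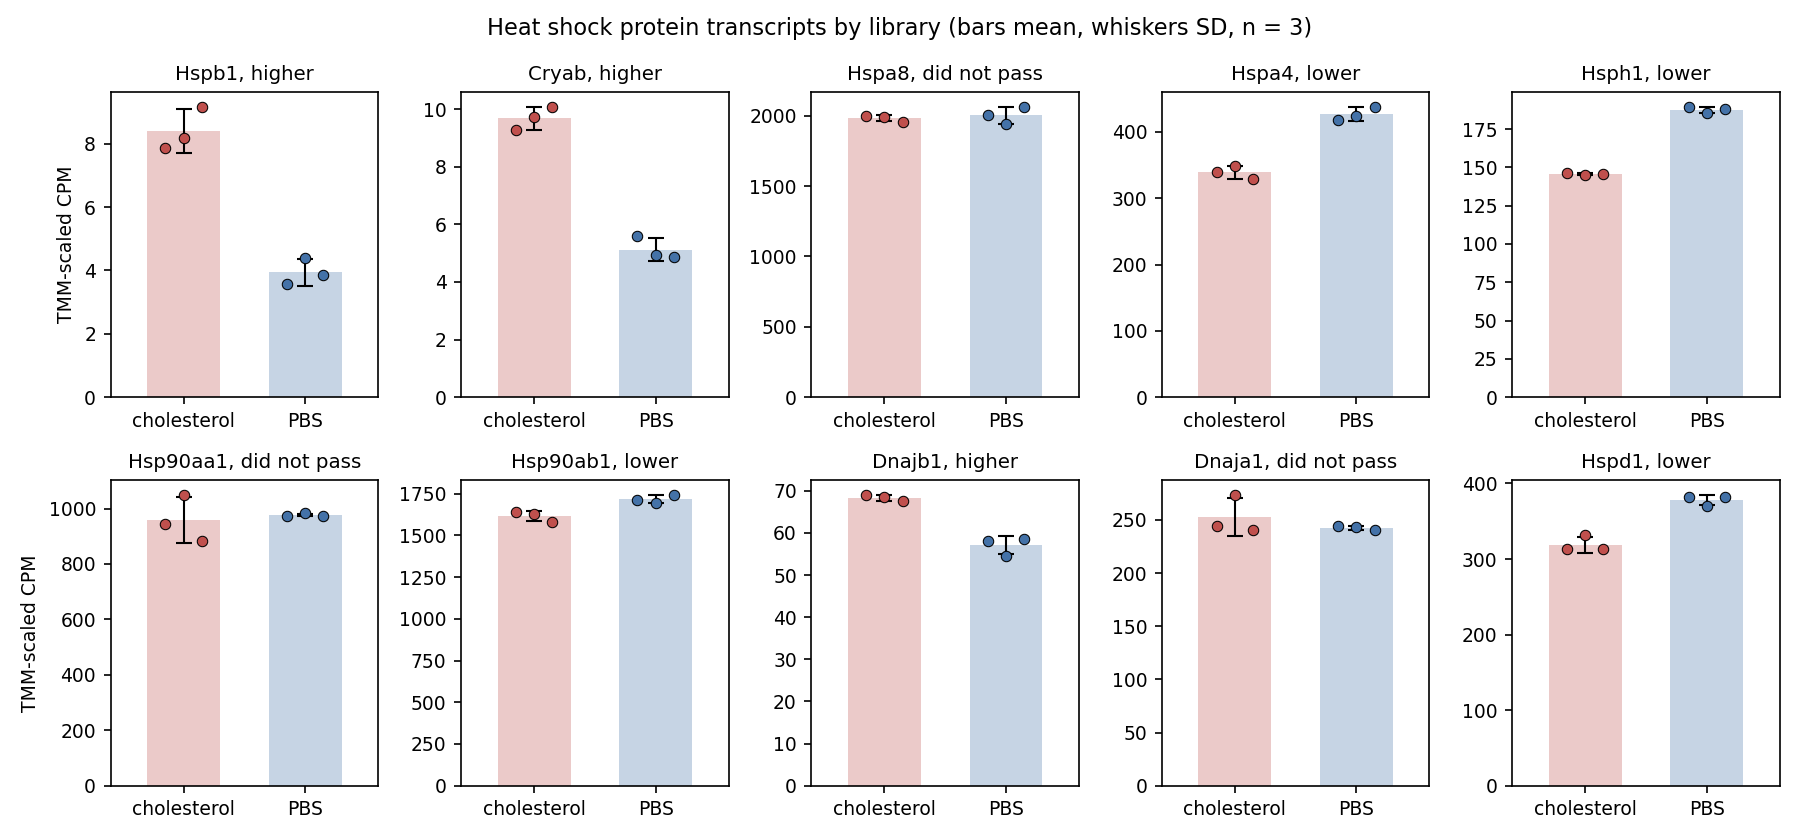
TMM-scaled CPM (vertical axis) of each heat shock protein in 3 cholesterol and 3 PBS libraries; bars are means, whiskers SD and points libraries. Hspb1 and Cryab in cholesterol libraries stand at about 2 times their PBS level, while Hspa8, Hsp90aa1 and Dnaja1 overlap between groups.

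Hspb1 encodes HSP27 (HSP25 in rodents), a small heat shock protein that also binds actin filaments. It had 7.86, 8.18 and 9.17 TMM-scaled CPM in the cholesterol libraries, against 3.56, 4.41 and 3.87 in the PBS libraries. All 3 cholesterol values lay above all 3 PBS values. The log2 fold change was 1.09 ± 0.12 (SE, 95% interval 0.82 to 1.37, adjusted p = 8.4e-05), and 4.67% of tested genes had a larger change in either direction. Its raw counts were 501, 555 and 591 with cholesterol and 251, 303 and 265 with PBS, the smallest of the 10 members, yet far above the floor of 3 counts. In the deposited coordinates, whose genome build could not be settled here, the gene lies on the minus strand at chr12:20794028-20795743.

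Cryab encodes αB-crystallin, a partner of HSP27 in mixed oligomers. It had 9.27, 9.74 and 10.07 CPM with cholesterol, against 5.58, 4.94 and 4.86 with PBS, again without overlap. It lies at chr8:51093441-51099157 on the plus strand. The log2 fold change was 0.92 ± 0.1 (SE, 95% interval 0.69 to 1.15, adjusted p = 8.25e-05). Its annotated span overlaps Hspb2, another small heat shock gene on the opposite strand, and no source says whether reads were assigned by strand. Hspb2 itself stood at 0.14, 0.47 and 0.85 CPM with cholesterol and 0.43, 0.92 and 1.09 CPM with PBS, and the groups overlapped.

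Other small heat shock genes came from a companion list. Hspb6, a small heat shock protein known from muscle, had 23.8, 23.0 and 24.3 CPM with cholesterol and 15.5, 14.6 and 16.0 CPM with PBS (log2 fold change 0.63 ± 0.067, SE, adjusted p = 5.76e-05). Hspb8, which works with Bag3 in clearing misfolded proteins, had 13.9, 14.9 and 11.7 CPM with cholesterol and 6.55, 9.55 and 8.43 CPM with PBS (0.72 ± 0.14, SE, adjusted p = 0.00254). Neither gene's groups overlapped. Hspb7 and Hspb9 stood between 0.175 and 0.434 CPM in all 6 libraries, with overlapping groups (adjusted p = 0.617 and 0.987). Those genes, Hspb2 and Bag3 were named after their values were seen. Bag3 averaged 10.6 ± 0.513 CPM with cholesterol and 9.84 ± 0.0934 CPM with PBS (SD, n = 3 each), and did not pass (log2 fold change 0.11, adjusted p = 0.36).

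Markers of several cell types differed between the same libraries. Their counts stand against 20.5% of all genes higher and 19.7% lower. Of 10 astrocyte markers 7 were higher and 2 lower, and their summed level ran from 2718 to 2992 CPM with cholesterol and from 1815 to 1825 CPM with PBS. Gfap made up the largest part of that sum, at 1924 CPM with cholesterol and 942 CPM with PBS. Of 12 microglial markers 9 were lower (summed 334 to 435 CPM with cholesterol, 533 to 554 CPM with PBS). Oligodendrocyte markers were all detected, 7 of 12 higher and 2 lower, at 26077 to 30060.0 CPM with cholesterol and 17448 to 17831 CPM with PBS. Precursor markers were 1 of 6 higher and 4 lower (5628 to 6333 CPM with cholesterol, 7569 to 7686 CPM with PBS). The 4 lower ones, Bcas1, Gpr17, Vcan and Ptprz1, carried the fall in that sum. Cspg4 was higher (61.1 CPM with cholesterol, 51.0 CPM with PBS). Pdgfra did not pass (342 CPM with cholesterol, 323 CPM with PBS). Of 8 neuron markers 1, Map2, was lower and 7 did not pass. Map2 averaged 281 CPM with cholesterol and 386 CPM with PBS. That gene carried the fall in the summed level (627 to 658 CPM with cholesterol, 709 to 736 CPM with PBS). Endothelial, mural and fibroblast markers were 3 of 8 higher and 2 lower (101 to 119 CPM with cholesterol, 102 to 132 CPM with PBS). No tested marker was at 0 in any library. Their part in the small heat shock protein result was not tested, and in bulk RNA a different number of cells of a type cannot be told apart from a different amount of RNA per cell.

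Hspa8 encodes the constitutive HSP70 (HSC70), and it was the most abundant member per length. It had 1997.5, 1989.7 and 1956.5 CPM with cholesterol and 2001.8, 1944.2 and 2064.8 CPM with PBS. The cholesterol values lay inside the PBS range. Its span (chr8:41183264-41187259, plus strand) holds a pair of small nucleolar RNA genes on the same strand. The log2 fold change was -0.02 with a 95% interval from -0.08 to 0.05 (adjusted p = 0.71). RefSeq lists 33 pseudogenes named after Hspa8, and reads shared with such copies make its count less certain. Quantile normalization gave it a log2 fold change of -0.13 (adjusted p = 0.00169), the single alternative of 16 in which it passed.

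Hspa4 and Hsph1 both encode HSP110-type exchange factors, and both fell. Hspa4 had 339.7, 348.6 and 329.5 CPM with cholesterol, against 417.6, 424.8 and 438.4 with PBS (log2 fold change -0.33 ± 0.035, SE, adjusted p = 5.6e-05). Hsph1 had 146.3, 145.1 and 145.9 CPM with cholesterol, against 189.5, 185.6 and 188.1 with PBS (-0.36 ± 0.032, SE, adjusted p = 1.67e-05). Hspa4 lies at chr10:37408025-37449001 (minus strand) and Hsph1 at chr12:5390922-5410224 (plus strand). Neither gene's groups overlapped, and the Hsph1 values within a group differed by at most a few CPM. Changes larger than that of Hsph1 were seen in 30.2% of all tested genes. The third HSP110 gene, Hspa4l, was higher at 38.9 ± 0.29 CPM with cholesterol and 32.6 ± 2.08 CPM with PBS (SD, n = 3 each; log2 fold change 0.25, adjusted p = 0.00716), and was named after its value was seen.

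Inducible HSP70 was low in CPM, but Hspa1b was listed at 62 to 106 counts per library, against the floor of 3 counts. Hspa1a and Hspa1b, nearly identical genes whose reads cannot be split with certainty, together had 1.13, 1.59 and 3.09 CPM with cholesterol and 2.55, 1.92 and 0.963 CPM with PBS. The groups overlapped. Hspa1a was listed at 0 counts in cholesterol replicate 1 and in PBS replicate 3. Both genes were named after their values were seen. Hspa2, a testis-enriched HSP70 that is also found in brain, rose the most of the HSP70 genes tested, with 33.8, 28.3 and 25.01 CPM with cholesterol and 11.7, 11.9 and 11.4 CPM with PBS (log2 fold change 1.32 ± 0.1, SE, adjusted p = 8.38e-06).

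Of the HSP90 pair, Hsp90ab1 (constitutive HSP90β) showed the smallest call of the 10. It had 1638.2, 1629.3 and 1581.3 CPM with cholesterol and 1711.9, 1695.1 and 1742.2 CPM with PBS (log2 fold change -0.09 ± 0.029, SE, adjusted p = 0.0344). The groups did not overlap, but the call ended in 8 of 16 alternatives, among them without cholesterol replicate 3 (adjusted p = 0.0585) and without PBS replicate 1 (0.114), 2 (0.0708) or 3 (0.128). The gene (chr9:15433691-15438488, plus strand) overlaps Nfkbie and Aars2 on the opposite strand, and RefSeq lists 23 pseudogenes named after it.

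Hsp90aa1 (stress-inducible HSP90α) had 945.2, 1048.7 and 884.0 CPM with cholesterol and 974.0, 982.2 and 974.7 CPM with PBS. Cholesterol replicate 2 lay above and the other 2 cholesterol libraries below all PBS values, so the SD was 83.2 CPM with cholesterol and 4.54 CPM with PBS. The log2 fold change was -0.03 (95% interval -0.14 to 0.09, adjusted p = 0.726). Without cholesterol replicate 2 it was -0.09 with an adjusted p of 0.0467, and without cholesterol replicate 3 it was 0.03 (adjusted p = 0.623). The gene lies at chr6:129702383-129707268 (minus strand), and RefSeq lists 16 pseudogenes named after it.

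Dnajb1 (HSP40), a J-domain protein that directs HSP70 to aggregates, rose in every cholesterol library. It had 68.9, 68.5 and 67.6 CPM with cholesterol, against 58.0, 54.6 and 58.6 with PBS (log2 fold change 0.26 ± 0.043, SE, adjusted p = 8.77e-04). A larger absolute change was seen in 43.4% of tested genes. Dnaja1, its relative in another J-domain class, had 243.9, 273.3 and 240.5 CPM with cholesterol and 243.8, 243.3 and 240.5 CPM with PBS. Its groups overlapped, with cholesterol replicate 2 standing above the rest as it did for Hsp90aa1 (log2 fold change 0.06, 95% interval -0.05 to 0.16, adjusted p = 0.362). Without that library its log2 fold change was -0.0012 (adjusted p = 0.981). Dnajb1 lies at chr19:24522717-24526458 (minus strand) and Dnaja1 at chr5:55842426-55853967 (plus strand), the span of which holds the microRNA gene Mir207.

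**Figure D2:**
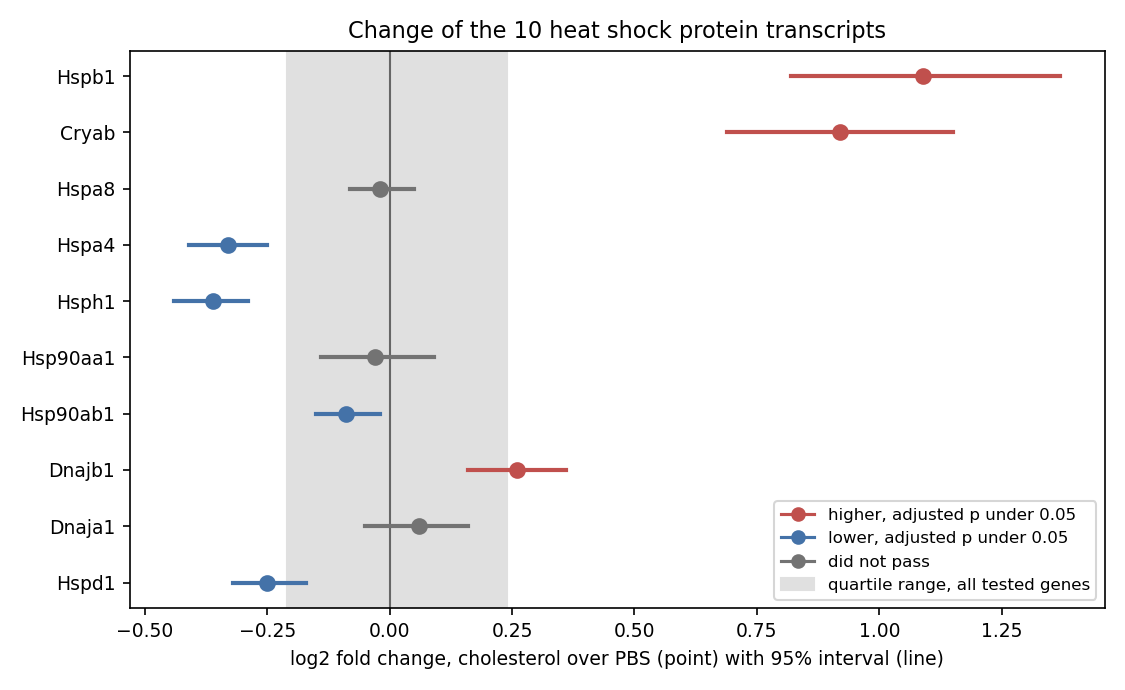
Log2 fold change, cholesterol over PBS (horizontal axis), for each heat shock protein, with points for estimates and lines for 95% intervals; the grey band runs from the lower to the upper quartile of all tested genes (-0.21 to 0.24). Hspb1 and Cryab lie far right of the band, Hsph1 and Hspa4 left of it, and the others within it or close to its edges.

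Hspd1 encodes HSP60, the barrel of the mitochondrial chaperonin, and its lid is HSP10, encoded by the neighbouring Hspe1. Hspd1 had 312.9, 331.2 and 312.8 CPM with cholesterol, against 381.5, 370.5 and 382.3 with PBS (log2 fold change -0.25 ± 0.036, SE, adjusted p = 3.69e-04). Hspe1 had 81.9, 92.0 and 78.2 CPM with cholesterol and 83.0, 81.9 and 86.4 CPM with PBS, and the means differed by less than their SDs (84.0 ± 7.13 CPM with cholesterol and 83.7 ± 2.35 CPM with PBS, adjusted p = 0.956). Hspa9 (mortalin), the HSP70 of the mitochondrial matrix, fell with 271.4, 279.5 and 283.2 CPM with cholesterol and 337.7, 332.1 and 333.1 CPM with PBS (-0.27 ± 0.032, SE, adjusted p = 1.31e-04).

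The genes Hspd1 and Hspe1 stand head to head, at chr9:56579201-56589662 on the minus strand and chr9:56589789-56593089 on the plus strand in the deposited coordinates. The run of capitals in the Hspd1 sequence above holds 2 overlapping 3-unit matches, which span chr9:64084262-64084279 in GRCr8. The same matches begin 65 and 60 bases before the start of Hspe1, read there on the other strand. Hspd1 is one of 5 members for which RefSeq lists pseudogenes (20), and no entry of the deposited table carries such a name for Hspd1.

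Levels of different genes were compared per length, in the authors' FPKM. Hspa8 led with 737 ± 4.26 FPKM with cholesterol and 740 ± 21.7 FPKM with PBS (SD, n = 3 each). Hsp90ab1 followed with 595 FPKM with cholesterol and 627 FPKM with PBS, then Hsp90aa1 with 335 FPKM with cholesterol and 339 FPKM with PBS, then Hspd1 with 131 FPKM with cholesterol and 154 FPKM with PBS. The ranges of these 4 genes did not overlap within either group. Dnaja1 ranged from 74.9 to 84.7 FPKM with cholesterol and from 73.9 to 74.8 FPKM with PBS, and Hspa4 from 59.4 to 62.5 FPKM with cholesterol and from 74.2 to 77.9 FPKM with PBS. Dnaja1 was thus above Hspa4 in every cholesterol library, and with PBS their ranges overlapped. Dnajb1 averaged 29.1 FPKM with cholesterol and 24.2 FPKM with PBS, and Hsph1 26.7 FPKM with cholesterol and 34.2 FPKM with PBS, so Dnajb1 stood above Hsph1 in every cholesterol library and below it in every PBS library. Cryab averaged 9.33 FPKM with cholesterol and 4.90 FPKM with PBS, and Hspb1, the lowest, 8.25 FPKM with cholesterol and 3.84 FPKM with PBS. The ranges of these 2 genes overlapped with cholesterol and not with PBS. From the highest to the lowest member the span was 89.3-fold with cholesterol and 193-fold with PBS.

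Ratios of FPKM within 5 pairs of partners or relatives remove the scaling between libraries. Hspd1/Hspe1 was 1.5, 1.41 and 1.57 with cholesterol and 1.8, 1.77 and 1.74 with PBS, a log2 difference of -0.25. A ratio does not remove a trend with transcript length. With that trend removed in the edgeR test, the log2 fold change was -0.29 for Hspd1 and -0.14 for Hspe1 (adjusted p = 0.0263 for Hspe1). Dnajb1/Dnaja1 was 0.389, 0.345 and 0.387 with cholesterol and 0.327, 0.309 and 0.336 with PBS, a log2 difference of 0.2. Both pairs separated the groups fully, which gives p = 0.1 in the exact two-sided permutation test, the smallest that 3 against 3 libraries allow (adjusted p = 0.25 over the 5 pairs). Neither ratio could therefore pass the 0.05 threshold. Hsph1/Hspa4 averaged 0.44 with cholesterol and 0.45 with PBS (log2 difference -0.03, exact permutation p = 0.5, adjusted 0.625). Hspb1/Cryab averaged 0.884 with cholesterol and 0.79 with PBS (log2 difference 0.17, exact permutation p = 0.3, adjusted 0.5). Hsp90aa1/Hsp90ab1 averaged 0.563 with cholesterol and 0.54 with PBS (log2 difference 0.06, exact permutation p = 0.7, adjusted 0.7). The groups overlapped in these 3 pairs.

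**Figure D3:**
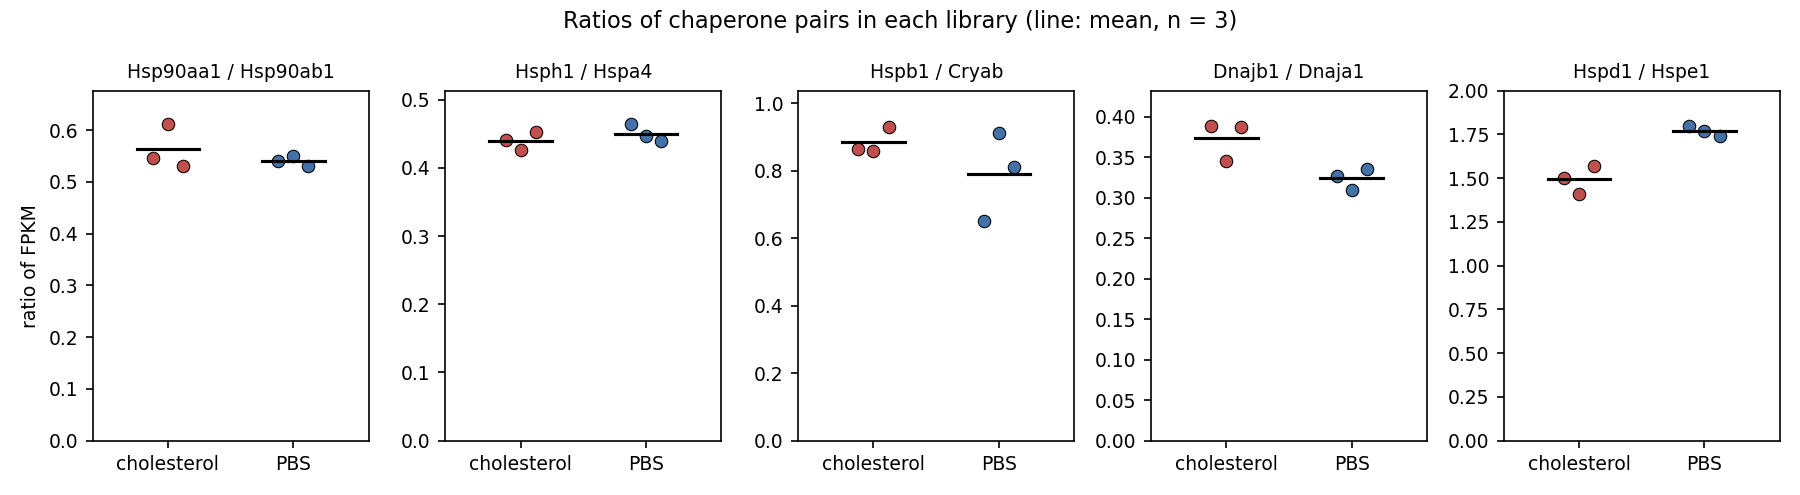
Ratio of FPKM within 5 chaperone pairs (vertical axes from 0) in 3 cholesterol and 3 PBS libraries, with lines for means. Hspd1/Hspe1 is lower and Dnajb1/Dnaja1 higher in every cholesterol library than in any PBS library, and the other 3 pairs overlap.

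Transcripts of the heat shock factors Hsf1 and Hsf2 fell slightly, and the activity of their proteins was not measured. Hsf1 had 24.95, 25.5 and 25.1 CPM with cholesterol and 28.8, 29.3 and 27.1 CPM with PBS (log2 fold change -0.17 ± 0.058, SE, adjusted p = 0.0365). Its call ended in 7 of 16 alternatives, among them without cholesterol replicate 1 (adjusted p = 0.101), 2 (0.0622) or 3 (0.0624) and without PBS replicate 1 (0.118) or 2 (0.122). Hsf2 averaged 80.0 ± 0.981 CPM with cholesterol and 90.2 ± 3.02 CPM with PBS (SD, n = 3 each; -0.17, adjusted p = 0.00515), and was named after its value was seen. In the list of heat shock factors and other heat shock genes, 7 of 22 tested were higher and 2 lower, against 20.5% higher and 19.7% lower over all genes, at a list median of 0.09 on the log2 scale, and the lower count was 1 without PBS replicate 1 or 2. Serpinh1, a collagen chaperone, was among the higher ones (0.32).

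The counts of the next lists stand against the same 20.5% of all genes higher and 19.7% lower. Of 15 further J-domain genes 4 were higher and 4 lower (median log2 fold change 0.02), and 2 were higher without cholesterol replicate 1 or without PBS replicate 1. Dnajb2, a J-domain protein rich in neural tissue, averaged 202 ± 6.53 CPM with cholesterol and 158 ± 3.03 CPM with PBS (0.36), Dnajc9, a histone chaperone, rose (0.47), and Dnajc13 (-0.38) and Dnajb12 (-0.19) fell. Of 23 co-chaperones 4 were higher and 6 lower (median -0.01). Stip1, which bridges HSP70 and HSP90, fell (-0.19), as did the cyclophilin Ppid (-0.36), while the ubiquitin ligase Stub1 (0.27) and Aarsd1 (0.46) rose. Stip1 overlaps 4 other annotated genes, and Stub1 and Ppid 1 each.

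Of 13 genes of the cytosolic chaperonin TRiC and of prefoldin, which hands it clients, 3 were higher and 3 lower (median -0.02). The higher ones were prefoldin subunits, among them Pfdn1 (0.32) and Pfdn5 (0.22), and the lower ones TRiC subunits, among them Cct3 (-0.16) and Cct6a (-0.16). Pfdn1, Cct3 and Cct6a kept their calls in all 16 alternatives. Pfdn5 lost its call in 5 of them (log2 fold change 0.09 to 0.26). The higher count was 1 without cholesterol replicate 2 or without PBS replicate 1, and under library median scaling the counts were 1 higher and 5 lower. Of 16 mitochondrial chaperones and proteases 5 were higher and 1, Hspa9, lower (median 0.03), with 3 lower under median scaling. The protease subunit Clpp (0.41), the import protein Dnajc19 (0.42) and the protease subunit Spg7 (0.29) were among the higher ones.

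Chaperones of the endoplasmic reticulum gave the most one-sided count of the 6 companion lists, with 1 of 16 higher and 9 lower, against 20.5% higher and 19.7% lower over all genes, and a median of -0.19 on the log2 scale. The lectin chaperone Calr averaged 610 ± 21.9 CPM with cholesterol and 954 ± 28.4 CPM with PBS (SD, n = 3 each; -0.64), and Hsp90b1, the HSP90 of that compartment, 494 ± 15 CPM with cholesterol and 674 ± 19.2 CPM with PBS (-0.45). Canx (-0.25) and the disulfide isomerase Pdia3 (-0.26) also fell. The 1 higher gene, Dnajc10 (0.12, adjusted p = 0.0205), named after its value was seen, lost its call without cholesterol replicate 1, without PBS replicate 1 or 3 and under median scaling, while 2 genes were higher without cholesterol replicate 2. The 10 cytosolic and mitochondrial members, with 3 higher and 4 lower, were not tested against this list.

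**Figure D4:**
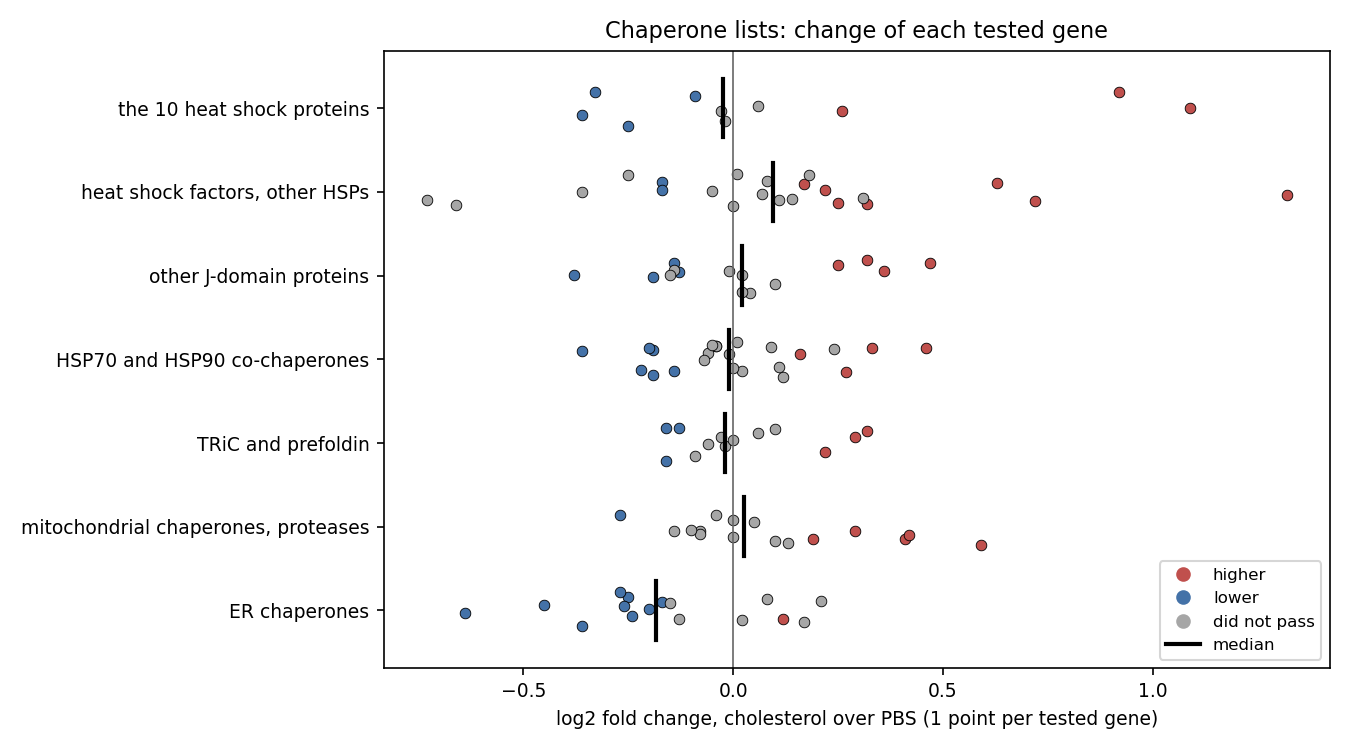
Log2 fold change, cholesterol over PBS (horizontal axis), of every tested gene in the 10-member group and 6 companion lists; red points were higher, blue lower and grey did not pass, and black bars are medians. ER chaperones have a median of -0.19, while the other medians lie between -0.02 and 0.09.

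Genes whose profile over the 6 libraries was most like a member's were ranked by the root mean square difference of gene-centred log2 CPM among 11921 named genes with at least 1 FPKM. For Cryab the nearest was Capn6 (difference 0.024 on the log2 scale), and for Hspb1 it was Slc38a3 (0.085). For Hsph1 the nearest 3, Tmem170b, Trim33 and Atg12, each lay within 0.013, and for Hspa4 the nearest was Mrtfa (0.02). For Hspd1 it was Hif1a (0.014), and for Dnajb1 the entry LOC361346 (0.012). The 3 members that did not pass had near neighbours with log2 fold changes between -0.02 and 0.06, among them Puf60 for Hspa8, Bzw1 for Hsp90aa1 and Ctsd for Dnaja1. All neighbours were picked for likeness over the same 6 libraries, so like fold changes follow from the choice. Whether any such pair is regulated together was not tested.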

How the data were processed

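Poly(A) RNA-seq of 3 cholesterol and 3 PBS libraries was analysed from 1 deposited gene table, and groups came from the sample titles. Per the file headers, it gives a read count and an FPKM value, both made by the authors, for each Ensembl gene and library. Per the labels' protocols, mRNA was selected with oligo(dT) beads and the second cDNA strand was marked with dUTP and digested. Tools listed in the submitters' processing notes, without their roles, are StringTie 2.1.6, HISAT2 2.2.1 and cutadapt 1.9, beside edgeR, DESeq2 and the build rn6. Whether counting used the strand is not given in the sources used here, and the table names no build. Its coordinates are printed as deposited: whether they are on rn6 could not be settled without a genome, and they may belong to a later build, so they should not be looked up in rn6 unchecked. No column of another sample was present.

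Counts were tested with edgeR 4.0.16 (R 4.3.3): filterByExpr kept 16182 of 20422 genes, TMM scaled the libraries, and glmQLFit with glmQLFTest compared the groups two-sided, with Benjamini-Hochberg adjustment over all genes tested and no replicate term. Levels are TMM-scaled CPM; the SE is the log2 fold change divided by the square root of F, and 95% intervals use the t distribution of the fit. Totals ran from 63769532 to 70878378 counts, and 3 counts correspond to 0.0425 to 0.047 CPM, which covers counting error only. Libraries of one group differed beyond sampling noise (chi-square per degree of freedom 8.65 to 20.1, against 79.2 to 109 between groups), so none was counted as a duplicate. The test was checked on simulated counts with 100 genes changed 2-fold and 100 changed 1.3-fold. It called 88% of the former and 56% of the latter, so changes of 1.3-fold were often missed. False calls were 5.26% of all calls there. Far fewer genes changed in that simulation than were called in these data.

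The members, companion lists and rules were chosen with earlier results of these data known. Named genes were all members, Hsf1, the up to 4 genes with the smallest p among those passing in each companion list, and the 3 nearest profiles of each member; not all are described. Hspe1 is named as the fixed partner of Hspd1 in the ratios, and Hspb2, Hspb7, Hspb9, Bag3, Hspa4l, Hspa1a, Hspa1b, Hsf2 and Dnajc10 were named after their values were seen. The cell type markers named singly were also chosen after their values were seen. Listed symbols not matched or not passing the filter were Hspb3, St13, Vbp1, Cldn5, Hspa12b and Rgs5. Alternatives were DESeq2 1.42.0 size factors and its Wald test, library median scaling, quantile normalization with limma 3.58.1 voom, other filters, a replicate block, removal of a transcript length trend, limma on log2(FPKM + 1) and log2(FPKM + 0.1), and leaving out each library. Promoter sequences are from RefSeq (GRCr8), and coordinates of the 2 sources were not mixed.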

Additional observations from a re-analysis of the deposited data

How the results depend on the processing

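Across 16 alternatives the members counted as higher stayed at 3, and those counted as lower ran from 3 to 5. Hspb1 (log2 fold change 0.93 to 1.18), Cryab (0.78 to 0.98), Dnajb1 (0.20 to 0.29), Hsph1 (-0.43 to -0.31), Hspa4 (-0.39 to -0.27) and Hspd1 (-0.31 to -0.18) kept direction and call in all 16. Hsp90ab1 kept its direction (-0.15 to -0.07), and its call also ended without a filter (adjusted p = 0.0677), and with limma on log2(FPKM + 1) (0.101) or log2(FPKM + 0.1) (0.0935). Values near 0 changed sign: Hspa8 ran from -0.04 to 0.0025 when a library was left out, Hsp90aa1 from -0.09 to 0.03, and Dnaja1 from -0.0012 to 0.09. Hsp90aa1 was 0.03 under quantile normalization, and Dnaja1 was -0.0035 with median scaling. Hspe1 was -5e-04 with DESeq2 size factors, -9e-04 with the Wald test, -0.06 with median scaling, -0.14 with the length trend removed (adjusted p = 0.0263), and -0.06 to 0.05 when a library was left out. The Hsp90aa1/Hsp90ab1 log2 difference was -0.0033 without cholesterol replicate 2 and at most 0.1 without another library. The cause of these changes was not tested. Median scaling moved the share of higher calls among all genes to 37.7% (2517 higher, 4158 lower), against 51% with TMM (3325 and 3189). Companion genes, over the lists sized above, were 24 higher and 25 lower, against 20.5% higher and 19.7% lower over all genes. In the alternatives run for them, 17 to 24 were higher and 22 to 34 lower. Same-numbered libraries did not deviate together (r over 13633 genes -0.06, -0.10 and -0.22, and no sample correlated best with its own number), so the numbers were not treated as pairs; with the replicate block 3 members were higher and 3 lower, and the call of Hsp90ab1 ended (adjusted p = 0.0704).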
